A study of Mus musculus with 13 samples.

Results

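Glycolysis and hypoxia-response genes are the enzymes and transporters that turn glucose into pyruvate and lactate, the kinases that hold pyruvate out of the mitochondrial oxidation pathway, and genes known to respond to low oxygen. The set held 36 named genes out of the 24079 genes of the RNA-seq count table, matched by symbol, and 35 of the 36 passed the filter on low counts, as did 13972 genes in all. The set was put together around Pdk1 because Pdk1 fell strongly in these same samples. The values that compare PhenDC3 with control for the 36 genes are therefore a description of this table, and their calls are not independent evidence that the pathway responds.

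The cells were CGR8, a line of mouse embryonic stem (ES) cells grown as an asynchronous culture with LIF and serum. Control cells received 0.5% DMSO and treated cells 10 μM PhenDC3, a small molecule that binds and stabilises G-quadruplexes (G4), both for 48 h. According to the study's methods PhenDC3 was given in the same share of DMSO, so the groups had the solvent in common. RNA-seq was available for 3 control and 3 PhenDC3 samples, and SNS-seq, which maps short nascent strands at replication origins, for 3 control and 2 PhenDC3 samples. No genotype difference separated the groups, and the labels do not say whether the RNA-seq replicates were separate cultures, so the spread between them may be partly technical.

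Glycolysis splits glucose in the cytosol. Its pyruvate either enters mitochondria through the pyruvate dehydrogenase complex or is reduced to lactate and exported, and the pyruvate dehydrogenase kinases set the balance by switching that complex off. In low oxygen the hypoxia-inducible factors (HIF), which are otherwise hydroxylated by the Egln enzymes and degraded through Vhl, bind short DNA sites known as hypoxia response elements and raise many of these genes. Mouse ES cells are known for a high glycolytic rate also when oxygen is present.

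The RNA-seq samples held between 22232014 and 29486502 counts. Of the 13972 genes tested, 18.7% were lower and 18% higher with PhenDC3 (edgeR, adjusted p of at most 0.05), and the median log2 fold change was 0.01. The 45S ribosomal RNA entry Rn45s took 2.55% to 5.7% of the counts in controls and 0.172% to 1.43% with PhenDC3. Scaling by total counts moved the median of all genes to 0.16 and gave 1688 lower and 3583 higher genes in place of 2617 and 2518, so every change below is relative to the median gene, and the part of this entry in the results was not tested. The summed level of 8 ES cell markers was 6480 to 6900 CPM in controls and 8460 to 9430 CPM with PhenDC3 (1 marker lower, 4 higher). Summed levels of 7 primitive endoderm markers were 42.5 to 97.4 CPM and 83.1 to 140 CPM (4 higher), those of 7 trophoblast markers 10.4 to 12.9 and 15 to 21.5 (2 higher), those of 9 fibroblast markers 12.6 to 22 and 23 to 25.6 (1 lower, 1 higher), and those of 6 blood markers 14.3 to 18.1 and 17.3 to 19.6. Most of the fibroblast sum came from Pdgfra (mean 10.5 CPM in controls and 19.7 CPM with PhenDC3), while Thy1 fell. Nearly all of the blood sum came from Cd68 (15.8 and 18.7 CPM). Whether these markers had a part in the results below was not tested, and in bulk RNA fewer cells of a type and less RNA per cell cannot be told apart.

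The promoters of the members that moved most are shown first, because HIF binds a short DNA site. The members were matched by symbol and not by such a site. The set holds known HIF targets such as Pdk1 and Egln3, however, so cores in its promoters are not independent of its choice. Each line below gives the 250 bases before a RefSeq transcription start (GRCm38.p6, 5′ to 3′ on the strand of the gene) of 1 of the 5 members with the largest falls and of the 2 with the largest rises among members in the promoter table, and where a gene has several starts, the one with the most sites. Capitals mark the core of the hypoxia response element, ACGTG or GCGTG, on either strand (read on the opposite strand as CACGT or CACGC).
Pdk1 (chr2:71872974-71873223, plus strand): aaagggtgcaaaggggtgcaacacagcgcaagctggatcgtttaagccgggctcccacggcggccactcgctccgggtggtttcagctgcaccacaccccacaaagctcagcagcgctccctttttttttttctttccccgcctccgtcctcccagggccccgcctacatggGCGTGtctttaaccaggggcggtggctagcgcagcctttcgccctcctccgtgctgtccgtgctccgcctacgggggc
Egln3 (chr12:54203875-54204124, minus strand): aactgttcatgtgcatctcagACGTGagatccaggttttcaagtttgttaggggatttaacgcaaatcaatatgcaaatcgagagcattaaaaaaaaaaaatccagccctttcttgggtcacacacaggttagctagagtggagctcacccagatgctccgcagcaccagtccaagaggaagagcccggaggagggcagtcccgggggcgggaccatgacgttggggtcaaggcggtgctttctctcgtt
Slc16a3 (chr11:120948817-120949066, plus strand): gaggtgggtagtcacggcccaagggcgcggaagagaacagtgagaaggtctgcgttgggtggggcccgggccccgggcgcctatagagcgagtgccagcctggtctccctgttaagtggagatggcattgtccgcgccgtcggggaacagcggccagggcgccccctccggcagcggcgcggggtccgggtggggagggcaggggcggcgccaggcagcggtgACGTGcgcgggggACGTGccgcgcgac
Aldoc (chr11:78322823-78323072, plus strand): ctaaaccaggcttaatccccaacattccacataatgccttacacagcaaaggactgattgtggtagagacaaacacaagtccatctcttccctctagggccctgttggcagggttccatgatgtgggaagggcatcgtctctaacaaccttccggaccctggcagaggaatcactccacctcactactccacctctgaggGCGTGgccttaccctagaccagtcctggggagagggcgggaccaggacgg
Ldha (chr7:46845554-46845803, plus strand): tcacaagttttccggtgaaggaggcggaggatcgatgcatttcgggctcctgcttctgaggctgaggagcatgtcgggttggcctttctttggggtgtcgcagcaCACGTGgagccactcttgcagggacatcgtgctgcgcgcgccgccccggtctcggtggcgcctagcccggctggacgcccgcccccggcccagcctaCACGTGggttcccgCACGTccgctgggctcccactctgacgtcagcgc
Hk1 (chr10:62340422-62340671, minus strand): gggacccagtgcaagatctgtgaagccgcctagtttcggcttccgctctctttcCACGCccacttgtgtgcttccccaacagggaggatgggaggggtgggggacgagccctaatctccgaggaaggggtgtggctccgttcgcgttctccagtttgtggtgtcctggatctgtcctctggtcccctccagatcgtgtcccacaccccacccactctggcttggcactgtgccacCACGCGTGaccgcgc
Egln1 (chr8:124949255-124949504, minus strand): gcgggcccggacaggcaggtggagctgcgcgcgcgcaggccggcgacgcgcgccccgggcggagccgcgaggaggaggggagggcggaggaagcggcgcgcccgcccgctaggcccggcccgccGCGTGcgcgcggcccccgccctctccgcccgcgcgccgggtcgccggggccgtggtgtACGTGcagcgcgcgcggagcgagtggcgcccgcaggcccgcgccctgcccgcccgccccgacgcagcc
In the printed 250 bases Pdk1 held a single core, GCGTG, 78 bases before its start. With the 50 bases after the start included, its promoter held 2. Slc16a3 held ACGTG 27 and 14 bases before the start, Aldoc GCGTG at 50 bases and Egln3 ACGTG only at 229 bases. Ldha held CACGTG, which is the E-box and reads as ACGTG on both strands, 145 and 48 bases before the start, and a further CACGT at 34 bases. Hk1, which rose, held cores at 196, 15 and 12 bases, and Egln1, which also rose, at 126 and 68 bases. A core was present in the printed window of members that fell and of members that rose. The start with the most sites was printed, which favours a core, and the other listed starts of Pdk1 and Hk1 held none. Either core also stood in 60.9% of promoters of tested genes, so no conclusion is drawn from its presence.

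Over the set, 32 of the 36 genes matched the promoter table by gene ID, with 46 promoters of 300 bases (250 before and 50 after the start). The other 4 were Slc2a3, Epas1, Bnip3l and Ndrg1. ACGTG stood in 27 of the 46 promoters (58.7%), against 25% of 14066 promoters of genes tested in RNA-seq and 19.6% of all 32851 promoters. GCGTG stood in 26 (56.5%), against 49.6% and 32.4%. Either core stood in 37 promoters (80.4%), against 60.9% and 43.8%, and at least 2 cores in 28 (60.9%), against 32.8% and 20.6%. The E-box CACGTG, which overlaps ACGTG, was in 6 promoters (13.0%), against 9.8% and 7.2%. Promoters of 1 gene can overlap and share sites, and the median GC content was 64.0% for the members' promoters and 52.7% for all. The part of GC content in these shares was not tested.

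A core in at least 1 promoter was found in 17 of the 18 members that fell, in 4 of the 5 matched members that rose and in 7 of the 8 matched members that were not called. Over all genes tested the shares were taken by single promoter, with 63.5% for lower genes, 57.4% for higher genes and 61.2% for the rest. A gene with several promoters has more chances to hold a core, so these shares and the counts by gene are not on the same scale. G4 potential was scored with G4Hunter, which rewards runs of G and penalises runs of C in windows of 25 bases. A score of 2 or more on either strand was reached by 21 of 46 members' promoters (45.7%), against 27.7% of promoters of tested genes and 19.3% of all promoters, and a score of 1.5 or more by 36 (78.3%), against 58.0% and 41.6%. By gene, 11 of the 18 members that fell reached a score of 2, as did 2 of 5 that rose and 2 of 8 that were not called. Among all tested genes the share of promoters at this score was 26.6% for lower, 32.6% for higher and 26.6% for uncalled genes, where higher genes had the larger share. These shares are by promoter and the members' counts by gene, so their order cannot be compared directly, and no difference was tested. In the windows printed above, Slc16a3 (2.44 on the gene's strand) and Hk1 (2.32) passed a score of 2, whereas Pdk1 reached 0.96 on its own strand and 1.52 on the opposite strand.

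**Figure D1:**
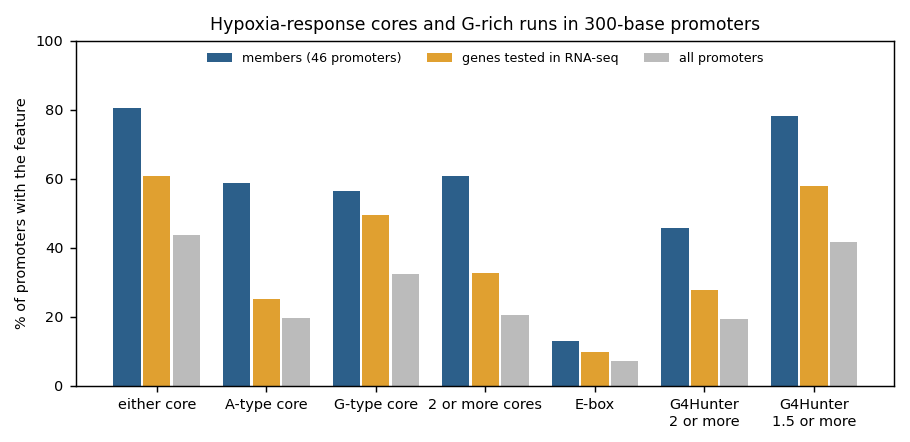
Share of promoters (%, vertical axis) of members, of genes tested in RNA-seq and of all genes that hold each feature: either core, ACGTG (A-type) or GCGTG (G-type), at least 2 cores, the E-box, and a G4Hunter score of 2 or 1.5. The members' bars stand highest for each feature, with 58.7% against 25% of tested genes for ACGTG.

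In control cells the set spanned a wide range of levels. Levels are given as normalized CPM (read counts divided by the scaled library size, in CPM), and between genes as CPM per kb of the longest RefSeq transcript. The highest were Pkm, pyruvate kinase (1247 ± 240 CPM per kb, SD, n = 3), Aldoa, an aldolase (1206 ± 81.3), Gapdh (1019 ± 183) and Ldha, the main lactate dehydrogenase subunit (1018 ± 23.8). Pkm and Aldoa did not differ beyond their spread, nor did Gapdh and Ldha. Pgk1 (771 ± 74.0), Pgam1 (623 ± 64.0) and Tpi1 (416 ± 22) followed, each apart from the next by more than 1 SD of either. The kinases and oxygen sensors were far lower, with Pdk1 at 50.7 ± 2.23, Egln3 at 6.11 ± 1.3 and Egln1 at 4.23 ± 0.42 CPM per kb. Car9, the carbonic anhydrase often used as a hypoxia marker, was near the floor, with 17, 26 and 8 counts in controls and 8, 3 and 2 counts with PhenDC3, and was not tested.

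With PhenDC3, 18 of the 35 tested members were lower, 6 were higher and 11 were not called, against a background of 18.7% lower and 18% higher over all genes. The 3 PhenDC3 samples lay wholly below the 3 controls for 20 members and wholly above for 6, where 25.6% and 25% of all tested genes did so. The median log2 fold change of the members was -0.48, beside 0.01 for all genes. These counts include Pdk1, around which the set was chosen, and nothing is read from them about the pathway. The number of higher members was 3 without PhenDC3 replicate 1 and also 3 without PhenDC3 replicate 2, and that of lower members was 13 with total-count scaling. Calls over all genes were fewer there too. Higher genes numbered 1709 of 14195 tested without PhenDC3 replicate 1 and 2035 of 14183 without replicate 2, beside 2518 of 13972 in full. Lower genes numbered 1688 with total-count scaling, beside 2617.

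**Figure D2:**
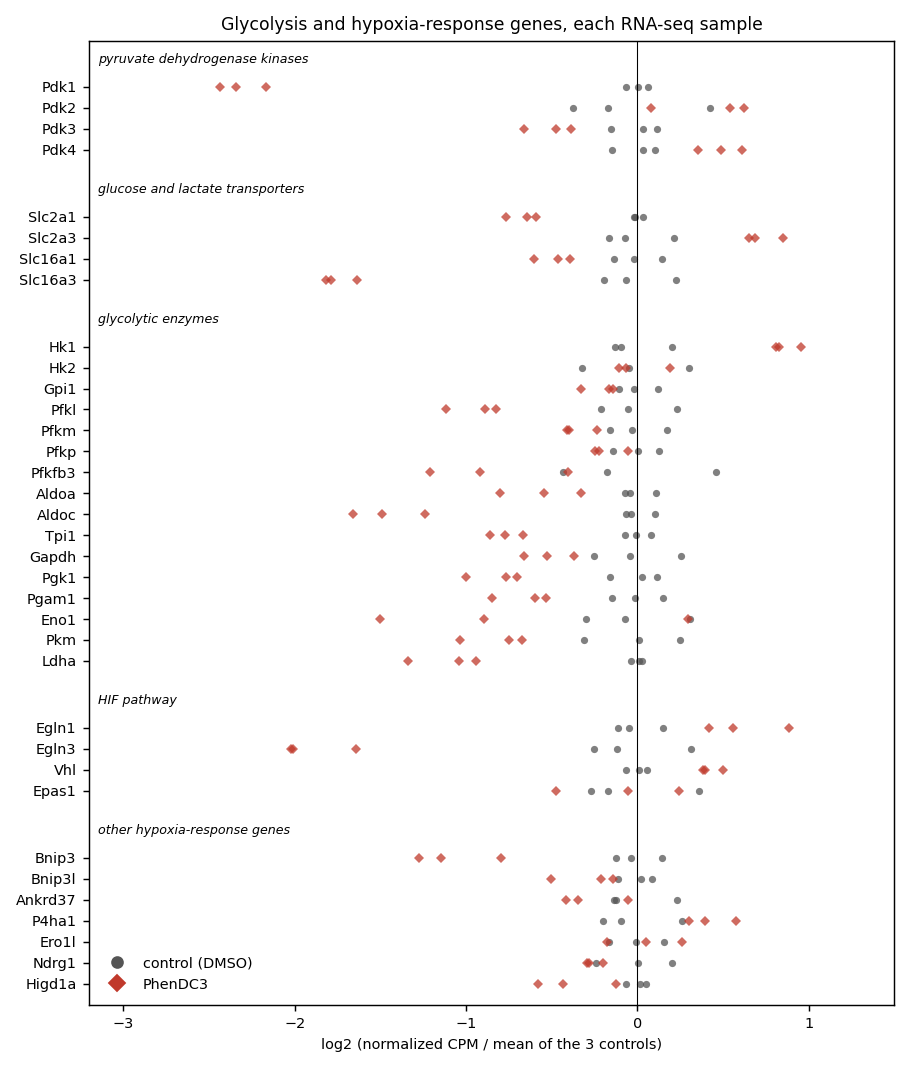
Each row is a tested member, grouped by role; circles are the 3 control and diamonds the 3 PhenDC3 RNA-seq samples, on the horizontal axis as log2 of normalized CPM over the mean of the controls. By log2 fold change Pdk1, Egln3, Slc16a3 and Aldoc fell most and Hk1 and Slc2a3 rose most, with no overlap between groups for these genes. Single points of other members, such as Egln1 and Eno1, lie about as far out.

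The pyruvate dehydrogenase kinases did not move together. Pdk1 (GRCm38, chr2:71873215-71903858), the kinase best known as a HIF target, stood at 263.8, 250.8 and 273.9 normalized CPM in controls and at 48.5, 51.9 and 58.5 with PhenDC3. Every PhenDC3 sample lay far below every control, and the log2 fold change was -2.31 ± 0.12 (SE). Among 12480 genes with a mean of at least 1 CPM, 82 fell more.

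Pdk3, a kinase of the same family, stood at 29.4, 31.2 and 25.9 CPM in controls and at 22, 20.7 and 18.2 with PhenDC3 (log2 fold change -0.51 ± 0.13). Pdk4, known for its rise in fasting, went the other way, from 9.77, 8.62 and 10.2 CPM to 12.2, 14.6 and 13.4 (0.49 ± 0.15). Groups did not overlap for either gene, though both calls depended on the samples used. That of Pdk3 was lost without PhenDC3 replicate 3 (edgeR adjusted p = 0.0597) and with total-count scaling (0.0766). That of Pdk4 was lost without control replicate 1 (0.0635) or 2 (0.0795) and without PhenDC3 replicate 1 (0.0564), 2 (0.0956) or 3 (0.0758), each an adjusted p. Pdk2 overlapped between groups, with 4.63, 7.02 and 4.02 CPM against 8.05, 7.61 and 5.52 (0.44 ± 0.25, not called). It passed the threshold without control replicate 2 (edgeR adjusted p = 0.0457) and with a replicate block (0.0359).

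The make-up of the kinase family differed between the groups. Per kb, Pdk1 gave 72.7% ± 2.65 (SD, n = 3) of the summed level of the 4 kinases in controls and 38% ± 4.27 with PhenDC3, while the share of Pdk3 was 20.2% ± 2.02 and then 36.7% ± 3. Pdk4 stood at 3.97% ± 0.32 and then 14.4% ± 1.18, and Pdk2 at 3.17% ± 0.99 and then 11% ± 1.96. The sum itself went from 69.7 ± 0.61 to 26.9 ± 0.60 CPM per kb, so in PhenDC3 samples Pdk1 and Pdk3 stood at similar levels, where Pdk1 alone led in controls.

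The transporters also split within families. Slc2a1, the widespread glucose transporter, stood at 519.8, 522.3 and 538.9 CPM in controls and at 309.2, 349.5 and 336.6 with PhenDC3 (log2 fold change -0.67 ± 0.10). Slc2a3 (chr6:122727809-122802363), a high-affinity glucose transporter, rose instead, from 1183, 908.7 and 971 CPM to 1643, 1603 and 1843 (0.73 ± 0.13). No PhenDC3 sample overlapped a control for either gene. The summed level of both was 463 ± 34.7 CPM per kb in controls and 557 ± 33.6 with PhenDC3, and the share of Slc2a1 went from 44.4% ± 3.6 to 23.2% ± 1.7.

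Slc16a3 (chr11:120948484-120959000), the lactate exporter of strongly glycolytic cells, stood at 91.1, 83.4 and 111.5 CPM in controls and at 27.1, 30.6 and 27.6 with PhenDC3. Its log2 fold change was -1.75 ± 0.14, the third largest fall of the set. Slc16a1, the broader monocarboxylate transporter, fell less, from 179.5, 148.3 and 160.7 CPM to 118.2, 107.1 and 124 (-0.48 ± 0.12), and its call was lost without PhenDC3 replicate 1 (adjusted p = 0.0507). Slc16a3 made up 50.9% ± 3.97 of the sum of both per kb in controls and 30.3% ± 2.96 with PhenDC3, and the sum went from 75 ± 7.27 to 37.7 ± 1.31 CPM per kb.

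**Figure D3:**
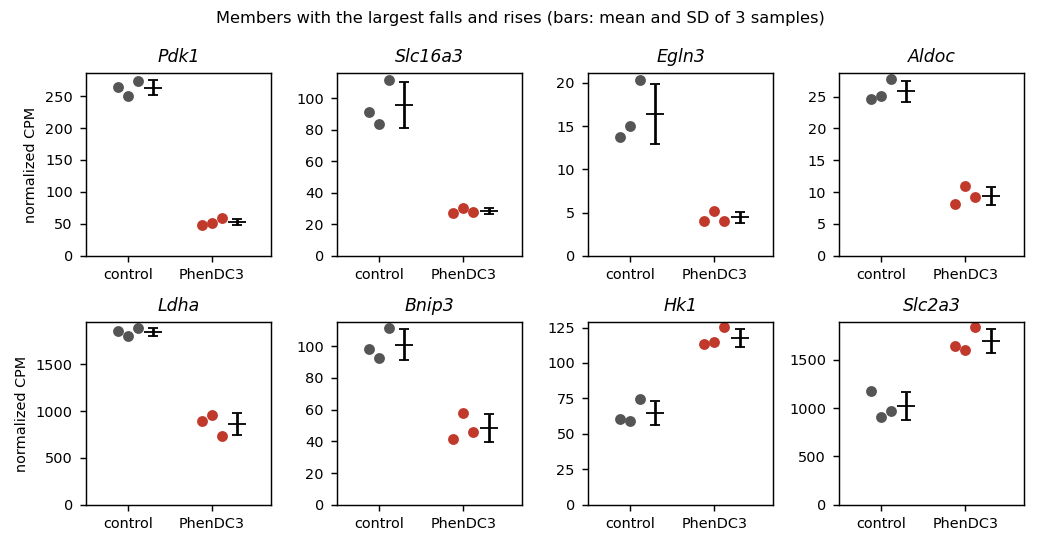
Normalized CPM (vertical axes, from 0) of 8 members with large changes in each of 3 control and 3 PhenDC3 RNA-seq samples, as points, with the mean and SD beside them. Pdk1 lies between 250.8 and 273.9 in controls and between 48.5 and 58.5 with PhenDC3, while Hk1 and Slc2a3 are higher in every PhenDC3 sample.

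Of the 16 glycolytic enzymes, 11 fell, 1 rose and 4 were not called, where 18.7% of all tested genes were lower and 18% higher. The step that traps glucose in the cell showed no fall. Hk1 (chr10:62268855-62379920), a hexokinase, rose from 60.6, 59.1 and 74.5 CPM to 113.5, 114.8 and 125.3 (log2 fold change 0.86 ± 0.12), and Hk2, the more abundant hexokinase here, stood at 408.2, 336.5 and 520.1 CPM in controls and within that range with PhenDC3 (0.01 ± 0.17, 95% confidence interval -0.36 to 0.39, with a sign that depended on the scaling). The share of Hk1 in the sum of both was 17.1% ± 1.55 in controls and 27% ± 1.17 with PhenDC3. Gpi1, which turns glucose phosphate into fructose phosphate, was not called (-0.21 ± 0.11), although its PhenDC3 samples lay below the controls.

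The committed step, phosphofructokinase, is carried by Pfkl, Pfkm and Pfkp. Pfkl stood at 325.1, 362.7 and 442 CPM in controls and at 212.3, 203.1 and 173.9 with PhenDC3 (log2 fold change -0.94 ± 0.14), with no overlap. Pfkp was not called (-0.17 ± 0.12). Pfkm fell slightly (-0.35 ± 0.12), but its call was lost without control replicate 1 (adjusted p = 0.0919) or 3 (0.0996), without PhenDC3 replicate 1 (0.17), 2 (0.141) or 3 (0.0688), without the filter on low counts (0.0577) and with total-count scaling (0.2). It held with a replicate block (edgeR adjusted p = 0.00506). Pfkl made up 53% ± 2.94 of the sum of the 3 genes per kb in controls and 40.8% ± 2.96 with PhenDC3, and the sum went from 174 ± 20.8 to 118 ± 5.57 CPM per kb.

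Pfkfb3, whose product makes the sugar phosphate that activates phosphofructokinase, stood at 20.1, 16.8 and 31.3 CPM in controls and at 12, 9.83 and 17.2 with PhenDC3. The groups overlapped and its log2 fold change was -0.80 ± 0.27. The call was lost without control replicate 1 (adjusted p = 0.0722), without control replicate 3 (log2 fold change -0.51, adjusted p = 0.108), without PhenDC3 replicate 1 (0.125) or 2 (0.11) and with total-count scaling (0.0698). It held with a replicate block (edgeR adjusted p = 3.64e-05).

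Below that step nearly all enzymes were lower. Aldoc (chr11:78323073-78327781), the less abundant aldolase, stood at 24.6, 25.1 and 27.7 CPM in controls and at 8.15, 10.9 and 9.19 with PhenDC3 (log2 fold change -1.45 ± 0.15). Aldoa, which gave 99.2% ± 0.1 of the sum of both aldolases per kb in controls, fell from 1858, 2063 and 1824 CPM to 1314, 1527 and 1097 (-0.54 ± 0.14), and its call was lost without PhenDC3 replicate 1 (adjusted p = 0.0553) and with total-count scaling (0.0692). The aldolase sum therefore followed Aldoa, from 1220 ± 81.4 to 830 ± 136 CPM per kb. With a replicate block the call of Aldoa held (edgeR adjusted p = 6.58e-05).

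Tpi1, triose phosphate isomerase, fell by 0.76 ± 0.11 on the log2 scale, Pgk1, phosphoglycerate kinase, by 0.82 ± 0.13 and Pgam1, phosphoglycerate mutase, by 0.65 ± 0.13. Pgk1 stood at 1434, 1260 and 1526 CPM in controls and at 826.8, 865.1 and 702.4 with PhenDC3, and groups did not overlap for any of the 3 genes. Gapdh, often used as a reference gene, fell from 1406, 1728 and 1214 CPM to 1006, 1122 and 915.2 (log2 fold change -0.51 ± 0.15). The call of Gapdh was lost without control replicate 1 (adjusted p = 0.0589) or 2 (0.0627), without PhenDC3 replicate 1 (0.0844) or 3 (0.0826) and with total-count scaling (0.112). It held with a replicate block (edgeR adjusted p = 0.000118).

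Pkm stood at 4507, 3595 and 5312 CPM in controls and at 2804, 2179 and 2660 with PhenDC3 (log2 fold change -0.81 ± 0.16). Ldha (chr7:46842274-46855627), which reduces pyruvate to lactate, stood at 1858, 1802 and 1887 CPM in controls and at 900, 960.6 and 731.8 with PhenDC3 (-1.10 ± 0.13). Both genes were lower in every PhenDC3 sample than in any control. Several of these abundant enzymes (Gapdh, Ldha, Pgk1, Tpi1, Aldoa, Pkm and Pgam1) have processed pseudogenes, to which the counting could have assigned part of the reads.

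Eno1, the enolase, is uncertain for that reason. It held only 56, 38 and 61 counts in controls and 33, 18 and 72 with PhenDC3 and was not called (log2 fold change -0.49 ± 0.42), and without PhenDC3 replicate 3 it was (-1.15, adjusted p = 0.0431). Its near-identical copy Eno1b, looked at after the values of Eno1 were seen, held 9698, 8646 and 7556 counts in controls and 5877, 5268 and 4427 with PhenDC3 (log2 fold change -0.87 ± 0.14), so nearly all counts of the pair stood on the copy.

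**Figure D4:**
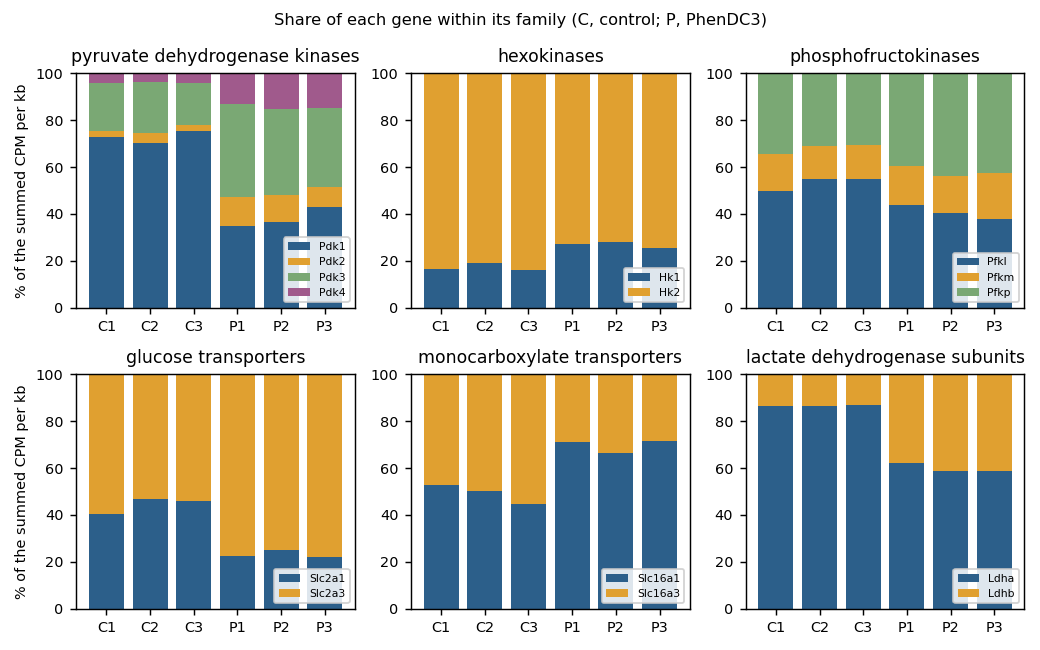
Share (%, vertical axes) of each gene in the summed CPM per kb of its family, for control (C1 to C3) and PhenDC3 (P1 to P3) RNA-seq samples. Pdk1, Slc2a1, Slc16a3, Pfkl and Ldha take a smaller share in each PhenDC3 sample than in any control.

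The oxygen-sensing genes moved in both directions. Egln3 (chr12:54178981-54203874), a prolyl hydroxylase that HIF itself induces, stood at 13.7, 15.1 and 20.3 CPM in controls and at 4.06, 5.23 and 4.03 with PhenDC3, a log2 fold change of -1.88 ± 0.20 and the next largest fall after Pdk1. Egln1, the main prolyl hydroxylase, rose from 14.4, 16.6 and 13.8 CPM to 21.9, 27.5 and 19.9 (0.63 ± 0.16). Neither gene overlapped between groups, and the log2 fold changes of both enzymes had opposite signs under all 11 alternatives.

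Vhl, which recognises hydroxylated HIF for degradation, rose from 19.6, 21.2 and 20.6 CPM to 26.9, 28.9 and 26.6 (log2 fold change 0.43 ± 0.11), and the call was lost without control replicate 1 (adjusted p = 0.0514) and without PhenDC3 replicate 1 (0.0606) or 2 (0.0599). Epas1, which encodes a HIF subunit, varied within both groups, at 52.6, 56.2 and 81.3 CPM and 61.0, 45.6 and 74.9 CPM, and was not called (-0.07 ± 0.21, 95% confidence interval -0.55 to 0.41, positive with total-count scaling).

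The 8 other hypoxia-response genes gave 1 fall and 1 rise among the 7 tested, near the 18.7% lower and 18% higher of all tested genes. Bnip3, a receptor for the removal of mitochondria, stood at 98.4, 92.5 and 111.6 CPM in controls and at 41.6, 58.0 and 45.7 with PhenDC3 (log2 fold change -1.06 ± 0.15). Its relative Bnip3l was not called (-0.28 ± 0.13), with all PhenDC3 samples below the controls, and passed only with a replicate block (edgeR adjusted p = 0.0132). P4ha1, a subunit of collagen prolyl hydroxylase, rose from 42.5, 31.0 and 33.2 CPM to 43.8, 46.7 and 53.0 (0.43 ± 0.14). The call of P4ha1 was lost without control replicate 2 (adjusted p = 0.126) or 3 (0.0941), without PhenDC3 replicate 1 (0.0763), 2 (0.0816) or 3 (0.151) and with TMM scaling (0.0505).

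Higd1a, a small mitochondrial protein induced by hypoxia, lay lower in all PhenDC3 samples and just missed the threshold (log2 fold change -0.37 ± 0.13, edgeR adjusted p = 0.0561). It passed without PhenDC3 replicate 2 (0.0204), with TMM scaling (0.0492), with DESeq2 (0.0469) and with a replicate block (0.00438). Ankrd37, a small HIF target, gave -0.26 ± 0.19, Ndrg1, a stress-response gene, -0.26 ± 0.14, and Ero1l, which drives disulfide formation in the endoplasmic reticulum, 0.06 ± 0.14, all with overlapping groups and none called.

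Other genes of the pathway were taken from lists drawn up for comparison. Their counts are to be read beside the 18.7% lower and 18% higher of all tested genes, whose median log2 fold change was 0.01. Of 10 tested genes of the pyruvate dehydrogenase complex and its phosphatases, 4 were lower and none was higher (median log2 fold change -0.31). They included Pdp1, a phosphatase that opposes the kinases (-0.79 ± 0.15), Dlat (-0.40 ± 0.10) and Pdhb (-0.38 ± 0.11), subunits of the complex. The call of Dlat was lost without PhenDC3 replicate 1 (adjusted p = 0.0546) or 3 (0.0526) and that of Pdhb without control replicate 1 (0.0522) or 2 (0.062) and without PhenDC3 replicate 1 (0.11) or 3 (0.082). Of 10 tested HIF subunits and regulators, 2 were lower, Siah2 (-1.58 ± 0.24) and Rbx1 (-0.51 ± 0.12), both parts of ubiquitin ligases, and none was higher. The number of lower genes was near the 18.7% of all tested genes. The call of Rbx1 was lost without PhenDC3 replicate 1 (adjusted p = 0.0535), and Elob and Eloc were not found in the table under those symbols.

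Other HIF target genes outside the set were called higher more often than lower. Of 23 tested, 10 were higher and 6 lower, where 18% of all tested genes were higher and 18.7% lower. Their median log2 fold change was 0.38. Ak4, a mitochondrial adenylate kinase, stood at 142.3, 101.9 and 172.9 CPM in controls and at 385, 376.3 and 371.2 with PhenDC3 (1.44 ± 0.18). Car12, a carbonic anhydrase, rose by 1.36 ± 0.20 and Ddit4, an inhibitor of mTOR signalling, by 1.3 ± 0.16 on the log2 scale. Each stood higher in every PhenDC3 sample. Falls of a similar size were seen in the same list for Fam162a, a mitochondrial protein (-1.27 ± 0.20), Stc2, a secreted glycoprotein (-1.27 ± 0.25), and Mif, a cytokine (-1.19 ± 0.17), all wholly below the controls and named after their values were seen.

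Of 14 tested glycolytic isozymes outside the set, 3 were lower and 4 higher, where 18.7% of all tested genes were lower and 18% higher. Ldhb, the lactate dehydrogenase subunit of oxidative tissues, rose from 208.5, 203.6 and 208.5 CPM to 393.4, 486.7 and 368.7 (log2 fold change 1.01 ± 0.13), so the share of Ldha in the sum of both subunits per kb went from 86.5% ± 0.15 to 59.9% ± 2.02. Hkdc1, a hexokinase-like gene, rose (1.62 ± 0.22) and Eno3, the muscle enolase, fell (-1.35 ± 0.20), both at low levels. Of 14 tested genes of the pentose phosphate and glycogen branches, 4 were lower and 2 higher, beside the same 18.7% and 18%. Tkt, transketolase, fell from 607, 622.1 and 746.4 CPM to 353.7, 342.1 and 346.5 (-0.92 ± 0.12), Pgls, an enzyme of the oxidative branch, gave -0.98 ± 0.30, and Pygl, glycogen phosphorylase, rose from 1.12, 1 and 1.3 CPM to 5.38, 6.61 and 4.32 (2.24 ± 0.24). The call of Pgls was lost without control replicate 2 (adjusted p = 0.0773) and without PhenDC3 replicate 1 (0.1) or 3 (0.0954). With total-count scaling the calls of Dlat (0.0827), Pdhb (0.156), Rbx1 (0.0515) and Pgls (0.0623) were lost, each an adjusted p, and 11 genes of all the comparison lists were lower in place of 19. Over all genes, 1688 were lower with this scaling in place of 2617.

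SNS-seq peaks at the promoters are a measure that the choice of the set did not use. A peak within 2 kb of a RefSeq transcription start was found for 29, 28 and 18 of the 36 members in the 3 controls, and for 32 and 24 in the 2 PhenDC3 samples. The means differed by 3 members, and the groups overlapped (exact permutation test, two-sided, p = 0.8, and 3 samples against 2 cannot go below 0.2). The members' share was lowest in the shortest list and highest in the longest. Control replicate 3 (79384 peaks) had 50% and PhenDC3 replicate 1 (144116 peaks) had 88.9%, while the other lists did not order by size. Among all genes tested in RNA-seq the shares were 67.2%, 64.6% and 39.2% in controls and 64.3% and 46% with PhenDC3, below the members in each sample. With the same number of peaks from each list the members counted were 27, 27 and 18 in controls and 27 and 20 with PhenDC3, a difference of -0.5.

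A peak was present in all 5 samples for 15 of the 36 members (41.7%), against 25.9% of the 13949 genes tested in RNA-seq with an annotated start and 19.4% of all 23937 genes. One member, Egln3, had none (2.8%), against 17.7% of tested genes. Pfkp and Pgk1 had a peak in both PhenDC3 samples and in no control (5.6% of members, against 2.0% of tested and 2.2% of all genes). Ero1l had one in 2 controls and in no PhenDC3 sample (2.8% of members with a peak in at least 2 controls only, against 8.3% of tested and 6.1% of all genes). With 2 and 1 members, these shares were not tested. At Pdk1 a peak was called in control replicates 1 and 2, with a fold enrichment over the RNase-treated library of 4.14 and 4.15, and in both PhenDC3 samples, with 3.62 and 3.4. Control replicate 3 had none there, so the presence of a peak at Pdk1 did not separate the groups. From the nearest start, the highest summit lay at 715 and 711 bases in these controls and at 756 in PhenDC3 replicate 1. It lay at -180 in PhenDC3 replicate 2, so the enrichments are not all of the same site. At Hk1, which rose, a peak was called only in PhenDC3 replicate 1 (7.91), and at Slc16a3, which fell, in all controls (5.86, 4.23 and 3.11) and in PhenDC3 replicate 1 (7.01). The summits at Slc16a3 lay at different positions, so those values are not all of the same site either. Peaks were called in each condition against an RNase-treated library of its own, and the lists hold no counts, so the depth behind them is unknown and an absent peak does not show an inactive origin.

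**Figure D5:**
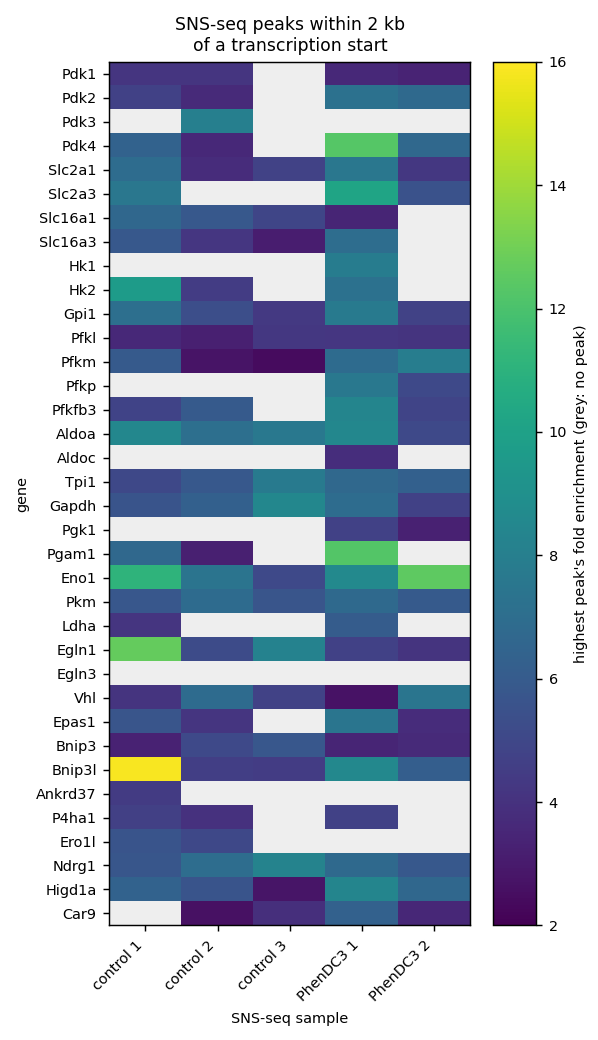
Fold enrichment (colour) of the highest SNS-seq peak within 2 kb of a transcription start of each of 36 members (rows) in 3 control and 2 PhenDC3 samples (columns), with grey where no peak was called. Grey is most frequent in control replicate 3, where 18 members had a peak, and Egln3 is grey throughout.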

How the data were processed

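RNA-seq values were the raw counts per gene that the authors deposited. According to the submitters' processing notes they used TopHat2 (2.1.1) and Bowtie2 (2.2.9) on mm10 and HTSeq (0.6.1p1), and the annotation and strand setting of the counting are not given in the sources used here, so overlapping and antisense genes cannot be told apart. Genes were tested with edgeR (4.0.16, R 4.3.3; quasi-likelihood, robust, relative log expression scaling, filterByExpr, Benjamini-Hochberg over 13972 genes, adjusted p of at most 0.05), with 3 samples per group, and the fit was tested on simulated data. Depth was 22232014 to 29486502 counts. Alternatives were TMM, DESeq2 (1.42.0), no filter, a replicate block, each sample left out and, added after seeing the data, total-count scaling. For SNS-seq the authors mapped reads with Bowtie2, called narrow peaks with MACS2 (2.1.0) per replicate and kept those overlapping SICER regions. Each deposited list gives the fold enrichment of a peak as a ratio and its −log10 p-value. A member had a peak if one overlapped 2 kb on either side of a curated RefSeq start (GRCm38.p6).

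The 36 members, their order and all comparison lists were chosen with earlier results of these data known. Every member is named by role, and from each comparison list the called genes with the largest change and a mean of at least 1 CPM, at most 3. A deposited DESeq2 table (fold changes and p-values) and a table of normalized pseudo-counts were not used, nor were the RNase-treated libraries on their own. Motifs were searched on both strands of RefSeq promoters, and G4Hunter used windows of 25 bases.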

Additional observations from a re-analysis of the deposited data

How the results depend on the processing

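Of the 24 called members, 15 kept their direction and their side of the threshold under all 11 alternatives. Leaving out 1 RNA-seq sample gave 14 to 17 lower and 3 to 5 higher members, and 9 to 17 lower and 12 to 16 higher genes of the comparison lists, which were 19 and 16 in full (9 lower without PhenDC3 replicate 1 and 12 without PhenDC3 replicate 3). The calls over all genes varied as well. They ran from 1623 lower and 1709 higher without PhenDC3 replicate 1 to 2727 and 2689 without control replicate 3. Total-count scaling gave 11 lower genes of the comparison lists, and 1688 lower over all genes in place of 2617. The 3 members whose log2 fold change was near 0 turned sign: Hk2 was -0.001 with TMM and -0.131 to 0.186 over samples left out, Epas1 0.088 with total-count scaling and -0.25 to 0.149, and Ero1l -0.06 to 0.161. The cause was not tested. With a replicate block, 20 members were lower and 7 higher, since Pdk2 (adjusted p = 0.0359), Bnip3l (0.0132) and Higd1a (0.00438) were now called. All members called in the main fit kept their calls with the block. Among those that lost the call when some sample was left out, Pdk3 had an edgeR adjusted p of 0.001, Pdk4 0.00811 and Slc16a1 0.000305. P4ha1 had 0.00729 and Vhl 0.00339. The block gave 22 and 20 for the comparison lists, and for all genes 3692 lower and 3797 higher in place of 2617 and 2518. The deviations of same-numbered samples correlated at 0.09, 0.544 and 0.405, and 6 of 6 samples correlated best with their own number. This is a hint of pairing from the data. The headers of the count columns also number each control directly before the PhenDC3 sample of the same replicate. The labels name no shared batch, however, and the correlation of number 1 was small (0.09), so the unblocked fit was kept. Whether the samples were paired is not known. The SNS-seq difference of 3 members became -0.5 with equal numbers of peaks and -0.5 with the replicate block (replicates 1 and 2), and ranged from -1.0 (without PhenDC3 replicate 1) to 7.0 (without PhenDC3 replicate 2), being -0.5 without control replicate 3. With 3 samples against 3 or 2, small changes of low genes could not be resolved.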
